A study of Mus musculus with 8 samples.

Results

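The cadherins and protocadherins were examined in nuclei of the dorsal telencephalon of mouse embryos at embryonic stage E15.5. Members were all rows of the gene table whose symbol begins with Cdh and a digit or with Pcdh. This rule took 31 of 14166 genes: 4 type I classical cadherins, 13 type II classical cadherins, 2 other cadherins (Cdh13 and Cdh23), 4 delta-1 protocadherins, 5 delta-2 protocadherins, 2 other non-clustered protocadherins (Pcdh15 and Pcdh20) and 1 clustered protocadherin (Pcdha1). The study compared 4 wildtype samples with 4 samples labelled as a knockout of Pantr2, a long noncoding RNA gene. All 8 carry the strain label C57BL/6J and were frozen before nuclei were isolated and profiled by droplet single-nucleus RNA sequencing. How the Pantr2 allele was made, the sex of the embryos, and whether samples came from separate or pooled embryos are not given in the sources used here, so a p-value measures the spread between these samples. The counts of Pantr2 were not analysed here, and the labels were not checked against the targeted gene.

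Cadherins are calcium-dependent adhesion proteins of the cell surface that bind mainly to like molecules on neighbouring cells. Classical cadherins connect to actin through catenins, and type II cadherins are known for combinations that differ between cortical layers and areas. Delta-protocadherins act in cell sorting, axon growth and synapse formation, in part through the WAVE regulator of actin.

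Each sample held 20446698 to 34083796 unique molecular identifiers (UMIs, each standing for 1 captured RNA molecule) in 7280 to 10921 nuclei. Of 66806 barcode sequences, 510 (0.763%) occurred in more than 1 library. The deposited tables divide the nuclei into 7 numbered clusters without names. From marker lists, cluster 1 was upper-layer-like excitatory neurons (4 markers such as Cux1 and Cux2) and clusters 2 and 3 were deep-layer-like excitatory neurons (4 markers such as Bcl11b and Fezf2 in cluster 2, and 5 such as Tbr1 and Tle4 in cluster 3). Cluster 4 was apical-progenitor-like (11 markers) and cluster 5 intermediate-progenitor-like (5 markers). Cluster 4 also led in 3 GABAergic interneuron markers (Gad2, Dlx6os1 and Erbb4), so its name covers the larger set of markers only. These names were rebuilt here, and clusters 6 and 7, which led in under 3 markers of any class, stay unnamed. Cluster 6 held fewer nuclei in every knockout sample (596, 623, 422 and 314 in replicates 1 to 4) than in any wildtype sample (856, 791, 1028 and 849). The fits over all nuclei take in such differences in cluster size, and their part was not tested. Knockout replicate 4, with 314, had the fewest nuclei of any sample and cluster. Its levels of Pcdh10, Pcdh11x, Pcdh17 and Pcdh19 in cluster 6 were the lowest of any sample. These levels and the tests of cluster 6 are therefore also given without it, a choice made after its values were seen.

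Levels are given in CPM, UMIs of a gene per 1000000 UMIs of the same nuclei, summed per sample and cluster. The kit counts 3′ ends without a correction for length, so levels are compared between clusters or genotypes for 1 gene and not between genes. The cluster numbers are the authors' and are taken to rest on expression in these nuclei, so levels per cluster are a description without a test. Of the 31 members, 22 had a mean of at least 10 CPM in their highest cluster and 9 did not (Cdh1, Cdh3, Cdh5, Cdh19, Cdh22, Cdh23, Pcdh1, Pcdh18 and Pcdha1). Pcdha1 shares identical stretches with the transcripts of 12 other genes, and its 178 UMIs in all samples together are uncertain. A member was said to mark a cluster when its highest mean was at least 10 CPM and at least 2 times the next cluster's mean, and that cluster was highest in all 8 samples. By that rule 4 members marked a cluster: Cdh18 and Cdh11 in cluster 3, Cdh8 in cluster 5 and Pcdh20 in cluster 7. With a ratio of 3 in place of 2, Cdh18 and Pcdh20 remained.

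Among the type I cadherins, Cdh2 (N-cadherin, which holds together the junctions of radial glia) was present in every cluster. Its level ran from 917 CPM in cluster 7 to 1515 ± 136 CPM (SD, n = 8) in cluster 2, a ratio of 1.65. Cdh4 (R-cadherin) was highest in the progenitor-like clusters, at 660.4 ± 173 CPM in cluster 5 and 615 ± 113 CPM in cluster 4, and lowest in cluster 7 at 59.6 CPM. The order of clusters 5 and 4 was within their spread.

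Several type II cadherins were concentrated in the deep-layer-like cluster 3. Cdh18 stood at 354 ± 81.7 CPM there, 9.85 times the next cluster (36.0 ± 11.3 CPM in cluster 6), and cluster 3 held 83.2% of all Cdh18 UMIs with 17.2% of the nuclei. Cdh11 was at 625 ± 18.9 CPM in cluster 3, with 309 ± 32.0 CPM in cluster 2 next and 49.9 CPM in cluster 4 lowest. Cdh11 has 7 near-identical partial copies among annotated transcripts, 6 of them in the gene table, so its counts could be split. Leaving out wildtype replicate 2 took the ratio of Cdh11 under 2 and left 3 marking members. Cdh9 was also highest in cluster 3, at 62.6 ± 12.5 CPM against 43.7 ± 15 CPM in cluster 6 and 1.40 CPM in cluster 1. Cdh7 followed the same order, at 43.7 ± 7.23 CPM in cluster 3 and 34.4 ± 14.4 CPM in cluster 6, which overlapped in their spread.

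Other type II cadherins were highest elsewhere. Cdh8 marked the intermediate-progenitor-like cluster 5 at 917 ± 127 CPM, 2.26 times cluster 1 (406 ± 39.4 CPM), and was lowest in cluster 3 at 65.1 CPM. It lies opposite an antisense gene, Gm15679, and UMIs of the pair could be mixed if strand was not used in counting. Cdh12 (brain cadherin) had its highest mean in the upper-layer-like cluster 1 at 448 ± 153 CPM, followed by cluster 6 at 345 ± 98.4 CPM, and cluster 1 was highest in 6 of 8 samples. Cdh10 had its highest levels in clusters 3 and 5, in an order that differed by genotype. Cluster 5 was above cluster 3 in all 4 wildtype samples (means of 502 ± 42.2 and 414 ± 44.0 CPM), and cluster 3 above cluster 5 in all 4 knockout samples (471 ± 82.5 and 362 ± 26.5 CPM). Cdh6 had its highest mean in the apical-progenitor-like cluster 4 at 127 ± 26.6 CPM. Cluster 3 was next at 106 ± 9.14 CPM (and highest when CPM were scaled by TMM factors) and cluster 7 lowest at 6.80 CPM. For Cdh6 cluster 4 was above cluster 3 in all 4 wildtype samples (means of 148 ± 17.4 and 99.7 ± 4.37 CPM). Cluster 3 was above cluster 4 in knockout replicates 1, 3 and 4 (knockout means of 113 ± 7.19 and 107 ± 15.9 CPM). Cdh20 was found mainly in clusters 4 (136 ± 17.9 CPM) and 7 (78.2 ± 26.5 CPM), with at most 11.4 CPM elsewhere. Cdh24 was nearly level, between 20.8 and 29.0 CPM, and with TMM factors its highest cluster was 6 in place of 4.

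Cdh13 (T-cadherin, held in the membrane by a lipid anchor instead of a transmembrane segment) was highest in the deep-layer-like clusters, at 4010.1 ± 346 CPM in cluster 3 and 3649 ± 915 CPM in cluster 2. Its lowest mean was 316 CPM in cluster 5. For Cdh13 cluster 3 was above cluster 2 in all 4 wildtype samples (means of 3745 ± 172 and 2876 ± 360 CPM). Cluster 2 was above cluster 3 in knockout replicates 1 to 3 (knockout means of 4421 ± 482 and 4275 ± 250 CPM). Among the delta-1 protocadherins, Pcdh9 was highest in cluster 3 in all 8 samples (5289 ± 322 CPM), 1.09 times cluster 6 (4834 ± 281 CPM), and lowest in the progenitor-like clusters 4 and 5. Pcdh7 had its highest mean over all samples in cluster 5 (1154 ± 145 CPM) and its lowest in cluster 4 (397 CPM), so it separated the progenitor-like clusters from each other. In all 4 knockout samples its level in cluster 2 was under that in cluster 4 (means of 256 ± 83.6 and 411 ± 62.6 CPM). Pcdh11x, an X-linked gene, was highest in cluster 6 at 323 ± 178 CPM, with 91.5 ± 11.4 CPM in cluster 4 next. In cluster 6 knockout replicate 4 stood at 36.7 CPM and the other samples at 116 to 539 CPM (mean 364 ± 147 CPM). Without that library Pcdh11x also marked cluster 6, which raised the count of marking members to 5.

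The delta-2 protocadherins, some of which recruit the WAVE complex, had their highest means in clusters of different kinds. Pcdh19, X-linked and known for its part in an epilepsy of females, was highest in cluster 6 at 145 ± 36.0 CPM and next in cluster 4 at 91.2 ± 30.1 CPM. In cluster 6 knockout replicate 4 had 59.4 CPM and the others 139 to 170.1 CPM (mean without it 157 ± 10.7 CPM, n = 7). Pcdh17 was highest in cluster 7 at 168 ± 23.9 CPM and next in cluster 6 at 122 ± 49.8 CPM, where knockout replicate 4 had 27.0 CPM (136 ± 34.3 CPM without it). Pcdh10 had its highest mean in cluster 4 at 69.6 ± 22.0 CPM, followed by cluster 6 (59.6 ± 20.1 CPM). Its level in cluster 4 was above that in cluster 6 in all 4 wildtype samples (means of 89.4 ± 7.52 and 73.2 ± 8.70 CPM). It was under that in cluster 6 in knockout replicates 1 to 3. In cluster 6 knockout replicate 4 had 17.3 CPM and the others 52.7 to 84.9 CPM (65.6 ± 11.4 CPM without it). Pcdh8 ranged from 7.63 CPM in cluster 3 to 43.3 ± 7.46 CPM in cluster 1, with cluster 7 next at 37.7 ± 9.60 CPM.

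Pcdh15 (a tip-link protein of inner ear hair cells) was, like Cdh20, highest in clusters 4 (491 ± 98.2 CPM) and 7 (437 ± 70.0 CPM), with cluster 7 above cluster 4 when CPM were scaled by TMM factors. Pcdh20 marked cluster 7 at a low level, 11.2 ± 2.99 CPM, 3.04 times cluster 5. With only the wildtype samples, 7 members met the rule: the same 4 with Pcdh11x, Pcdh19 and Cdh20 added.

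**Figure D1:**
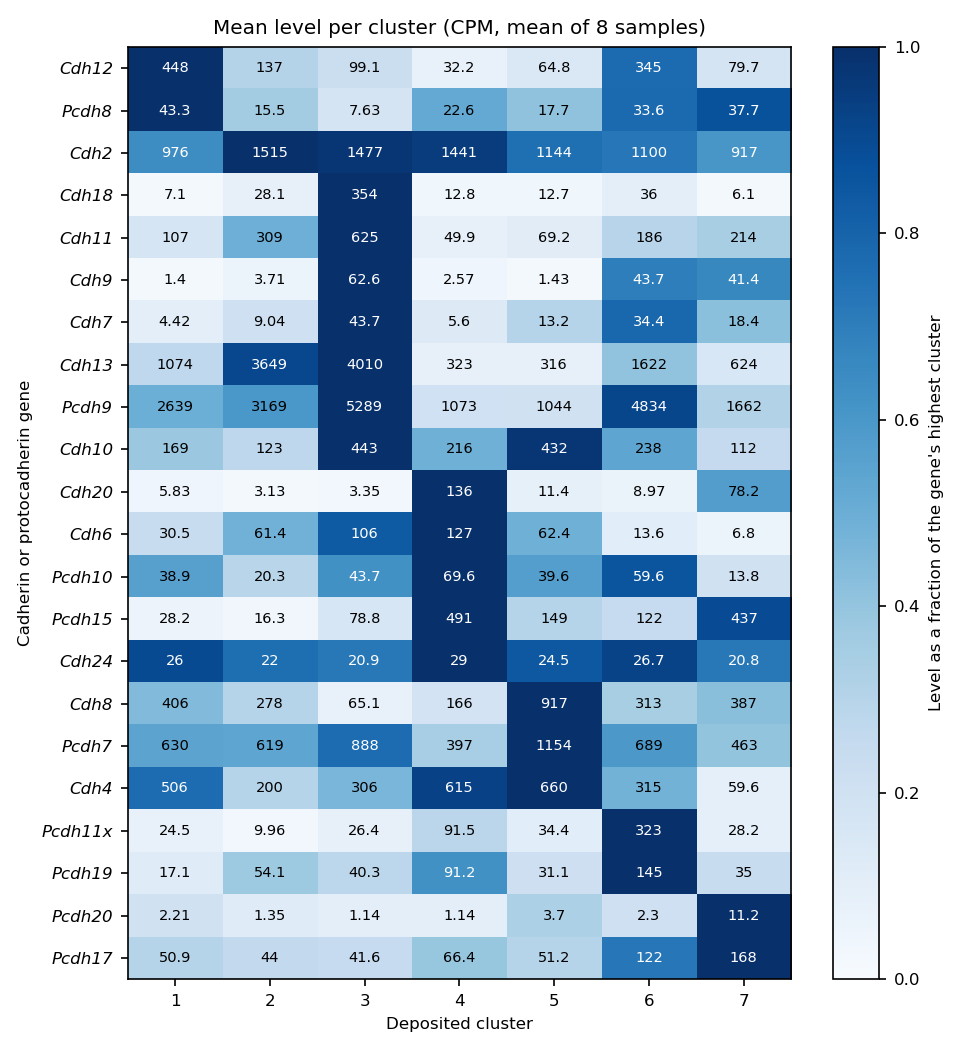
Mean level of the 22 members that reached 10 CPM in a cluster (rows), for the 7 deposited clusters (columns), printed in CPM over 8 samples; the shade is the level as a fraction of the gene's own highest cluster. Cdh18 is dark only in cluster 3, at 354 CPM, while Cdh24 lies between 20.8 and 29.0 CPM in all 7.

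Profiles over the 7 clusters were compared by Pearson's r of log2(mean CPM + 1), as a description over clusters that share libraries. The closest pairs were Cdh13 and Pcdh9 (r = 0.91), Cdh11 and Cdh13 (r = 0.89), Cdh20 and Pcdh15 (r = 0.88) and Cdh7 and Cdh9 (r = 0.88).

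Knockout and wildtype were compared over all nuclei of a sample, then within each cluster. Over all nuclei 4 of 30 tested members passed, all lower in the knockout (edgeR's quasi-likelihood test, Benjamini-Hochberg adjusted over all genes tested, threshold 0.05), beside 5.26% of 13926 genes (1.67% higher and 3.58% lower) called. Of these, 3 were type II cadherins (Cdh10, Cdh12 and Cdh18) and 1 a delta-1 protocadherin (Pcdh7). The median log2 fold change was −0.18 over the tested members and 0.00 over all genes. The replicate numbers were taken to pair the samples, which the labels do not state, and with them as a block 9 members passed. Calls over all genes rose under the block too, from 732 of 13926 to 1363 of 14011. Cdh9 (block adjusted p = 0.0231) and Pcdh10 (0.0415) were also lower, and Cdh13 (0.0079), Pcdh15 (0.00228) and Cdh20 (0.0367) higher. Without knockout replicate 2 the count was 2, beside 286 of 13968 genes.

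Cdh12 stood at 229.8, 236, 183 and 277 CPM in wildtype replicates 1 to 4 and at 117, 143, 93.0 and 134 CPM in knockout replicates 1 to 4. No knockout sample reached a wildtype one, and the log2 fold change was −0.91 ± 0.14 (SE, n = 4 per group, edgeR adjusted p = 0.00741). Cdh18 stood at 84.1, 113, 115 and 106 CPM in wildtype and 57.4, 55.5, 48.2 and 74.8 CPM in knockout samples, again without overlap (log2 −0.81 ± 0.15, edgeR adjusted p = 0.0132). It missed the threshold without knockout replicate 2 (adjusted p = 0.0545). Pcdh7 stood at 843, 708, 755 and 770.1 CPM in wildtype and 618, 612, 587 and 604 CPM in knockout samples, without overlap (log2 −0.33 ± 0.06, edgeR adjusted p = 0.0103). Cdh10 was at 279 ± 36.0 CPM and 215 ± 19.8 CPM, and the groups overlapped (log2 −0.36 ± 0.09, edgeR adjusted p = 0.0411). Its call was lost without any 1 of wildtype replicates 1, 2 and 4 and knockout replicates 1, 2, 3 and 4 (adjusted p up to 0.127).

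The deep-layer-like cluster 2 held the most calls. There 10 of 23 tested members passed, 7 lower and 3 higher in the knockout, beside 9.11% of 11538 genes (3.92% higher and 5.19% lower) called. The lower members were 5 type II cadherins (Cdh18, Cdh10, Cdh12, Cdh8 and Cdh6), Pcdh7 and Pcdh10. The higher members were Pcdh19, Pcdh9 and Cdh13. The median log2 fold change was −0.28 over the tested members and 0.00 over all genes.

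Cdh18 stood at 63.8, 42.2, 34.2 and 51.2 CPM in the wildtype samples of cluster 2 and at 8.67, 7.50, 5.88 and 11.6 CPM in the knockout samples. Every knockout value lay under every wildtype value, with a log2 fold change of −2.52 ± 0.22 (SE, n = 4 per group, edgeR adjusted p = 1.71e-05). Cdh10 stood at 287, 217, 89.2 and 239 CPM against 47.1, 42.9, 16.3 and 41.6 CPM. Replicate 3 was the lowest of both groups, which did not overlap (log2 −2.50 ± 0.33, edgeR adjusted p = 0.000341). Cdh12 stood at 350.3, 187, 116 and 259 CPM against 56.4, 49.3, 28.3 and 47.6 CPM, with replicate 3 again lowest in both groups and no overlap (log2 −2.34 ± 0.28, edgeR adjusted p = 0.000203).

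Pcdh7 stood at 1277, 737, 872 and 1042 CPM in wildtype and 239, 224, 183 and 376 CPM in knockout samples of cluster 2, and the groups were widely apart (log2 −1.94 ± 0.20, edgeR adjusted p = 7.53e-05). An antisense gene, 4932441J04Rik, overlaps Pcdh7 and had 1218 UMIs in all samples together, against 137017 for Pcdh7. In cluster 2 the antisense gene missed the threshold (log2 −0.96 ± 0.32, edgeR adjusted p = 0.0827). UMIs of the pair cannot be told apart if strand was not used in counting. Cdh8 stood at 456, 342, 359 and 485 CPM against 164, 110.0, 112 and 199 CPM, with no overlap (log2 −1.50 ± 0.17, edgeR adjusted p = 0.00015). Gm15679, the gene opposite Cdh8, had 781 UMIs in all samples together, against 64321 for Cdh8, and was lower in cluster 2 as well (log2 −1.49 ± 0.29, edgeR adjusted p = 0.00486). Cdh6 stood at 112, 57.0, 70.3 and 102 CPM against 34.4, 39.5, 37.7 and 37.7 CPM. Its wildtype samples varied more than its knockout samples, and the groups did not overlap (log2 −1.19 ± 0.18, edgeR adjusted p = 0.000882). Pcdh10 was at 26.7 ± 10.3 CPM and 13.9 ± 5.03 CPM with overlap (log2 −0.98 ± 0.28, edgeR adjusted p = 0.0478). Its call was lost with DESeq2 and without any 1 of wildtype replicates 1, 2 and 4 and knockout replicates 2, 3 and 4 (adjusted p up to 0.151). A gene opposite Pcdh10, 1700027H10Rik, had 278 UMIs in all samples together, too few to be tested in cluster 2.

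The 3 higher members changed by less than 1 log2 unit. Pcdh19 stood at 36.4, 33.2, 48.8 and 35.7 CPM in wildtype and 62.3, 81.9, 81.7 and 53.2 CPM in knockout samples, without overlap (log2 0.87 ± 0.16, edgeR adjusted p = 0.00317). Pcdh9 stood at 2384, 2329.7, 2792 and 2375 CPM against 3909.8, 4120.0, 3988 and 3449 CPM, also without overlap (log2 0.65 ± 0.08, edgeR adjusted p = 0.000307). Cdh13 stood at 2486, 3166, 3198 and 2656 CPM against 4260.1, 4762, 4849.7 and 3812 CPM (log2 0.62 ± 0.10, edgeR adjusted p = 0.00162), and the lowest knockout sample was above the highest wildtype sample. Cdh2 was at 1595 ± 115 CPM and 1434 ± 112 CPM and Cdh11 at 285 ± 22.3 CPM and 332 ± 19.7 CPM, and neither passed the test (adjusted p = 0.301 and 0.093).

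**Figure D2:**
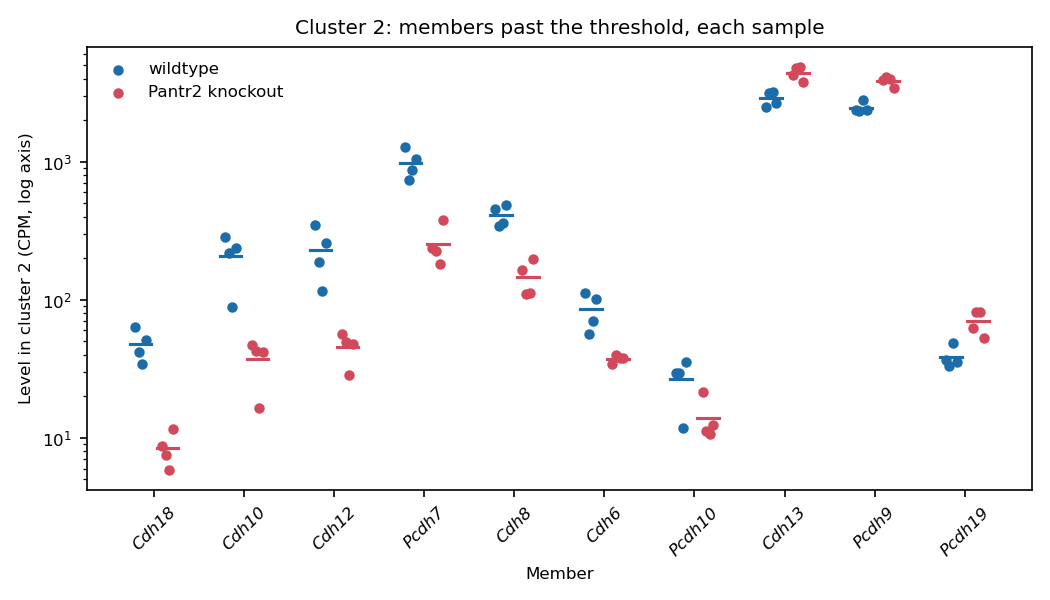
Level of the 10 members past the threshold in cluster 2, in CPM on a log axis, for each wildtype (blue) and Pantr2 knockout (red) sample; horizontal bars are group means of 4 samples. The groups are apart for 9 members and overlap for Pcdh10.

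The type II genes Cdh6, Cdh9, Cdh10, Cdh12 and Cdh18 lie in 1 stretch of chromosome 15, from 13028787 to 23474504 in the coordinates of the deposited gene table, whose header names no build. The submitters' processing notes name mm10 (GRCm38), but only 352 of 14162 genes had the same start and end there as in a GRCm38 annotation (GENCODE M21), so the positions were not taken as mm10. That stretch held 8 genes of the table, these 5 members and 3 others. In cluster 2, 4 of the 5 members were called lower. The fifth, Cdh9, was at 4.48 ± 1.22 and 2.93 ± 1.35 CPM and missed the threshold (log2 −0.64 ± 0.34, edgeR adjusted p = 0.309). The 1 other gene that could be tested was not called. RefSeq promoter records (GRCm38.p6) matched 20 of the 31 members. The 200 bases before the start are shown for the neighbours on chromosome 15 that were lower together and for Pcdh7, 5′ to 3′ on the strand of the gene, with capitals marking a CCAAT box. The RefSeq starts of Cdh12 and Cdh18 lie inside these long genes, 662187 and 487441 bases after the first start in GENCODE M21, each at the start of an annotated transcript. The RefSeq start of Cdh10 lies 1382 bases after its first start, also at the start of an annotated transcript. The windows of Cdh10, Cdh12 and Cdh18 therefore show an internal start.
Cdh6, chr15:13173676-13173875, minus strand: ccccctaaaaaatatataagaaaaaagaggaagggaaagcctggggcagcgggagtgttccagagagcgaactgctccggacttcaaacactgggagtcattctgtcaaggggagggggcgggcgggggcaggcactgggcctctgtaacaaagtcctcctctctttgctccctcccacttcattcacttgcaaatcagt
Cdh10, chr15:18820129-18820328, plus strand: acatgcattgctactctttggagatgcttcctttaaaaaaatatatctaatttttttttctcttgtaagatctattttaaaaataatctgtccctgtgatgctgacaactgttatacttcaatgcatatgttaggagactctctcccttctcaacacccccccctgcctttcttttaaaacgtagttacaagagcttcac
Cdh12, chr15:21111252-21111451, plus strand: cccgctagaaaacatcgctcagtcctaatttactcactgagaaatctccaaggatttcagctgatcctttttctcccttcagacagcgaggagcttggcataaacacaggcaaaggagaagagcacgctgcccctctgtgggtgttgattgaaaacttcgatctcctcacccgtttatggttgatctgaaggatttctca
Cdh18, chr15:23036263-23036462, plus strand: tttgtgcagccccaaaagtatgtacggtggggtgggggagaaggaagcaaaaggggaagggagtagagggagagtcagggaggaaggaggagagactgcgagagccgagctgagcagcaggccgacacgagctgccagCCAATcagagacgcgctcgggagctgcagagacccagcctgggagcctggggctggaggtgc
Pcdh7, chr5:57717881-57718080, plus strand: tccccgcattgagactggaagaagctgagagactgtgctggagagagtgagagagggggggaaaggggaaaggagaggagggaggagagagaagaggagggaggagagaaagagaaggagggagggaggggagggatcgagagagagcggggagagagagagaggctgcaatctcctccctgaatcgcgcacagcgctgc
The motifs searched on both strands were the CCAAT box, the TATA box (TATAAA), the octamer (ATGCAAAT) and the E-box of the Zeb and Snail type (CACCTG). In these 5 windows the only match was the CCAAT box of Cdh18. Of the 23 records of the members, 14 held CCAAT, 3 CACCTG, 2 TATAAA and 1 the octamer. These are counts of records and not of genes, since Cdh7 and Pcdh9 have more than 1 record each. The Pcdh9 windows overlap and share their CCAAT box, and Cdh7 gave more than 1 of the CACCTG records. Over all 32851 promoter records the window held CCAAT in 29.3%, CACCTG in 13.9%, TATAAA in 9.96% and the octamer in 1.38%. The windows differed in composition: Cdh10 had 1 CpG and 35.5% G and C, and Cdh18 had 8 CpG and 63% G and C, against a median of 9 CpG and 60.5% over the members' records and of 5 CpG and 53% over all records.

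Marker genes of layers moved with genotype in the same nuclei. In cluster 2 the summed level of the upper-layer markers measured (4 genes, Cux1, Cux2, Pou3f1 and Pou3f2) was 338 to 512 CPM in wildtype and 146 to 244 CPM in knockout samples, with 4 of 4 called lower. The 10 deep-layer markers summed to 8671 to 10633 and 12328 to 14400.1 CPM, with 5 of 10 called higher. The 9 measured GABAergic interneuron markers (of 10 listed) summed to 80.7 to 109 and 47.3 to 106 CPM, with 3 of 9 called lower, and no marker of these lists was at 0. Their part in the differences of the members in cluster 2 was not tested.

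A deposited coarser grouping joins clusters 1 and 2, and a fit on the merged nuclei was added after the data were seen. There 9 of 26 tested members passed, 6 lower and 3 higher, beside 7.22% of 12678 genes (3.3% higher and 3.92% lower) called. Cdh18 (log2 −2.10), Cdh10 (−1.17), Cdh12 (−1.13), Cdh6 (−0.73), Pcdh7 (−0.70) and Cdh8 (−0.41) were lower, and Pcdh19 (0.71), Cdh13 (0.68) and Cdh11 (0.37) higher. The call of Cdh6 was lost without any 1 of wildtype replicate 4 and knockout replicates 1 and 3 (adjusted p up to 0.0824), and that of Cdh11 without any 1 of wildtype replicates 2, 3 and 4 and knockout replicates 1, 2 and 3 (up to 0.11). With the replicate block Pcdh15 (lower, block adjusted p = 0.0174) and Pcdh9 (higher, 0.032) passed as well.

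In the upper-layer-like cluster 1, 6 of 22 tested members passed, 4 higher and 2 lower, beside 4.84% of 11664 genes (2.54% higher and 2.3% lower) called. Cdh13 and Cdh11, both with their highest mean over all samples in the deep-layer-like cluster 3, were higher, and Cdh12, highest in cluster 1 itself, was lower. Cdh13 stood at 683, 815, 806 and 701 CPM in wildtype and 1453, 1537, 1439 and 1154 CPM in knockout samples. Every knockout sample exceeded every wildtype sample (log2 0.92 ± 0.09, edgeR adjusted p = 3.23e-05). Cdh11 stood at 69.7, 78.2, 76.3 and 83.1 CPM against 155, 164, 137 and 95.6 CPM, without overlap (log2 0.87 ± 0.13, edgeR adjusted p = 0.00121). Cdh12 stood at 577, 621, 489 and 640.0 CPM against 289, 372, 257 and 341 CPM, and the groups were again apart (log2 −0.85 ± 0.11, edgeR adjusted p = 0.000279).

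Cdh18 was low in cluster 1 and lower in the knockout, at 9.17 ± 0.876 against 5.03 ± 1.18 CPM (edgeR adjusted p = 0.0197). Its call was lost without either of wildtype replicate 4 and knockout replicate 2 (adjusted p up to 0.0993). Pcdh7, opposite to cluster 2, stood at 606, 581, 575 and 540.3 CPM in wildtype and 712, 707, 698 and 621 CPM in knockout samples, without overlap (log2 0.28 ± 0.06, edgeR adjusted p = 0.013). This call was lost without any 1 of wildtype replicate 4 and knockout replicates 2 and 3 (adjusted p up to 0.0571). In clusters 1 and 2 merged, where the lower knockout values of cluster 2 are added in, Pcdh7 was lower. Pcdh17 was also higher, at 44.6 ± 6.67 and 57.3 ± 5.43 CPM with overlap (edgeR adjusted p = 0.031). Its call was lost without any 1 of wildtype replicates 2, 3 and 4 and knockout replicates 1 and 3 (adjusted p up to 0.133). The count of members passing in cluster 1 was 3 without wildtype replicate 4, beside 397 of 11709 genes. With the replicate block Cdh10, Pcdh9 and Pcdh15 were past the threshold as well, all lower (block adjusted p = 0.00617, 0.0303 and 0.0258).

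Upper-layer markers summed to 1579 to 1947 CPM in wildtype and 853 to 1120.4 CPM in knockout samples of cluster 1, with 4 of 4 called lower. The deep-layer sum was 2562 to 3063 and 3883 to 5271 CPM, with 5 of 10 called higher. The GABAergic sum was 86.0 to 135 and 49.9 to 76.8 CPM, with 4 of 9 called lower. No marker of these lists was at 0, and their part in the differences of Cdh13, Cdh11 and Cdh12 was not tested.

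In the deep-layer-like cluster 3, 3 of 24 tested members passed, all lower, beside 3.36% of 11890 genes (1.48% higher and 1.88% lower) called. Pcdh7 stood at 993, 1002, 968 and 1041 CPM in wildtype and 824, 743, 732 and 799 CPM in knockout samples, without overlap (log2 −0.34 ± 0.05, edgeR adjusted p = 0.00275). Cdh18, which marked this cluster, stood at 349, 486, 425 and 414 CPM against 315, 313, 235 and 298 CPM, also without overlap (log2 −0.50 ± 0.10, edgeR adjusted p = 0.0171). The call of Cdh18 was lost without either of wildtype replicate 2 and knockout replicate 3 (adjusted p up to 0.057). Pcdh17 was at 50.3 ± 3.61 and 32.9 ± 7.46 CPM without overlap (edgeR adjusted p = 0.0235) and lost its call without any 1 of wildtype replicates 1, 3 and 4 and knockout replicates 1, 2 and 3 (up to 0.0781). Without knockout replicate 3, 1 member passed, beside 192 of 12104 genes.

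The replicate block raised the count in cluster 3 to 7, adding Cdh9 (block adjusted p = 0.0235) and Pcdh15 (0.00104) as lower and Pcdh9 (0.0339) and Cdh13 (0.00957) as higher. It also raised the calls over all genes there, from 400 of 11890 to 643 of 12339. Cdh11, which also marked cluster 3, was at 623 ± 25.4 and 628 ± 13.0 CPM (log2 0.04 ± 0.05). Cdh10 was at 414 ± 44.0 and 471 ± 82.5 CPM and Cdh12 at 93.7 ± 21.5 and 105 ± 32.4 CPM, and neither passed here. Upper-layer markers overlapped between the groups in cluster 3 (177 to 233 and 136 to 198 CPM), with 0 of 4 called, and 2 of 9 GABAergic markers were called lower.

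In the apical-progenitor-like cluster 4, 4 of 23 tested members passed, 3 lower and 1 higher, beside 4.29% of 11935 genes (1.17% higher and 3.12% lower) called. Pcdh10, whose highest cluster this was, stood at 91.9, 85.0, 81.9 and 98.7 CPM in wildtype and 54.4, 51.9, 50 and 42.6 CPM in knockout samples. The groups were clearly apart (log2 −0.81 ± 0.09, edgeR adjusted p = 0.000363). Cdh4 was at 716 ± 34.0 and 515 ± 41.3 CPM without overlap (log2 −0.45 ± 0.07, edgeR adjusted p = 0.00297). Cdh6 stood at 132, 166, 134 and 159 CPM against 104, 130.4, 96.5 and 97.8 CPM, without overlap by a narrow margin (log2 −0.43 ± 0.11, edgeR adjusted p = 0.0491). The call of Cdh6 was lost with no filter on low counts, with Xist as a covariate, and without any 1 of wildtype replicates 1, 2, 3 and 4 and knockout replicates 1, 3 and 4 (adjusted p up to 0.151).

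Pcdh15 was higher in cluster 4, at 436, 466, 409 and 359 CPM in wildtype and 499.7, 655, 604 and 500.0 CPM in knockout samples, without overlap (log2 0.46 ± 0.10, edgeR adjusted p = 0.0239). The call was lost without any 1 of wildtype replicates 1, 3 and 4 and knockout replicates 2 and 3 (adjusted p up to 0.0722). With wildtype replicate 1, 3 or 4 or knockout replicate 3 left out, 2 members passed in cluster 4. Calls over all genes in these fits numbered 315 to 445. Under the replicate block Pcdh19 passed too (71.4 ± 14.0 and 111 ± 29.8 CPM, block adjusted p = 0.00755). GABAergic markers summed to 380.0 to 446 CPM in wildtype and 128 to 412 CPM in knockout samples of cluster 4, with 0 of 8 tested called, and their part in these differences was not tested.

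The deposited tables also give each nucleus an angle on the cell cycle, named for the tricycle method, which reads expression, so levels along it are a description. In the 4 equal arcs of the circle, counted from angle 0, Cdh20 stood at 66.4 ± 12.7, 127 ± 15.4, 184 ± 26.7 and 26.7 ± 14.2 CPM (SD, n = 8) in cluster 4. It was highest in arc 3 and lowest in arc 4, which rests on 734 nuclei and at least 46 per sample. Cdh8 ran the other way in arcs 1 to 3, at 245 ± 65.2, 190.2 ± 38.9, 106 ± 37.7 and 173 ± 44.7 CPM. Over the whole of cluster 4, Cdh20 was at 142 ± 7.40 and 131 ± 24.9 CPM in the genotypes and did not pass the test (log2 −0.09 ± 0.12).

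In the intermediate-progenitor-like cluster 5, 2 of 21 tested members passed, beside 1.77% of 10595 genes (0.868% higher and 0.906% lower) called. Cdh10 stood at 513, 501, 445 and 547 CPM in wildtype and 325, 371, 388 and 363 CPM in knockout samples, without overlap (log2 −0.44 ± 0.08, edgeR adjusted p = 0.00926). Pcdh15 was higher, at 126 ± 21.4 and 172 ± 15.2 CPM with overlap (log2 0.46 ± 0.11, edgeR adjusted p = 0.0489), and lost its call without any 1 of wildtype replicates 2, 3 and 4 and knockout replicates 1, 2, 3 and 4 (adjusted p up to 0.138). The count was 1 without any 1 of wildtype replicates 2, 3 and 4 and knockout replicate 1, where 101 to 189 genes were called. Under the replicate block 4 members passed, beside 207 of 11117 genes. Cdh4 (784 ± 145 and 537 ± 89.4 CPM, block adjusted p = 0.0185) and Cdh12 (82.6 ± 6.63 and 47.0 ± 22.8 CPM, 0.0359) were added as lower. Cdh8, which marked this cluster, was at 963 ± 59.7 and 870.2 ± 168 CPM with overlap. Deep-layer markers summed to 3164 to 3303 and 3839.5 to 5002 CPM here, with 2 of 10 called higher, and their part was not tested.

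In the unnamed cluster 6, 2 of 24 tested members passed, beside 0.779% of 10522 genes (0.352% higher and 0.428% lower) called. Cdh4 stood at 420.2, 407, 354 and 455 CPM in wildtype and 273, 215, 234 and 163 CPM in knockout samples, without overlap (log2 −0.86 ± 0.13, edgeR adjusted p = 0.00501). Cdh11 stood at 189, 144, 146 and 142 CPM against 207, 212, 222 and 223 CPM. The groups did not overlap, and wildtype replicate 1 was the nearest to the knockout samples (log2 0.49 ± 0.10, edgeR adjusted p = 0.0385). The call of Cdh11 was lost without any 1 of wildtype replicates 2, 3 and 4 and knockout replicates 2, 3 and 4 (adjusted p up to 0.134), and 1 member, Cdh4, passed in each of those fits. Calls over all genes in those fits numbered 51 to 103. Without knockout replicate 4, which had the fewest nuclei of cluster 6, the adjusted p was 0.00286 for Cdh4 and 0.0623 for Cdh11. Without knockout replicate 1, 4 members passed, beside 148 of 10914 genes.

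Under the replicate block 7 members passed in cluster 6. Calls over all genes rose as well, from 82 of 10522 to 264 of 11089. Cdh10 (block adjusted p = 0.0313), Cdh12 (0.00606), Pcdh7 (0.00697) and Pcdh15 (0.0017) were added as lower and Cdh13 (0.0127) as higher. Pcdh11x, highest in this cluster, varied between samples (289.9 ± 151 and 356 ± 220.4 CPM) and did not pass (log2 0.33 ± 0.52).

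In the unnamed cluster 7, Cdh13 alone of 25 tested members passed, beside 1.03% of 10548 genes (0.578% higher and 0.455% lower) called. It stood at 611, 419.5, 466 and 436 CPM in wildtype and 801, 929, 805 and 523 CPM in knockout samples, with overlap (log2 0.70 ± 0.15, edgeR adjusted p = 0.0351). Its call was lost without any 1 of wildtype replicates 2, 3 and 4 and knockout replicates 1, 2 and 3 (adjusted p up to 0.156). The count of members was 0 without any 1 of wildtype replicates 3 and 4 and knockout replicates 1 and 2, and 2 without wildtype replicate 1 or knockout replicate 4. Calls over all genes numbered 63 to 97 in the former fits and 96 and 142 in the latter. Under the block 3 members passed, with Cdh20 (block adjusted p = 0.00125) and Pcdh9 (0.00618) added as higher. Over all genes the calls rose from 109 of 10548 to 255 of 11110. Deep-layer markers summed to 4735 to 4988 and 5431 to 6393 CPM here, with 2 of 10 called higher, and their part was not tested.

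**Figure D3:**
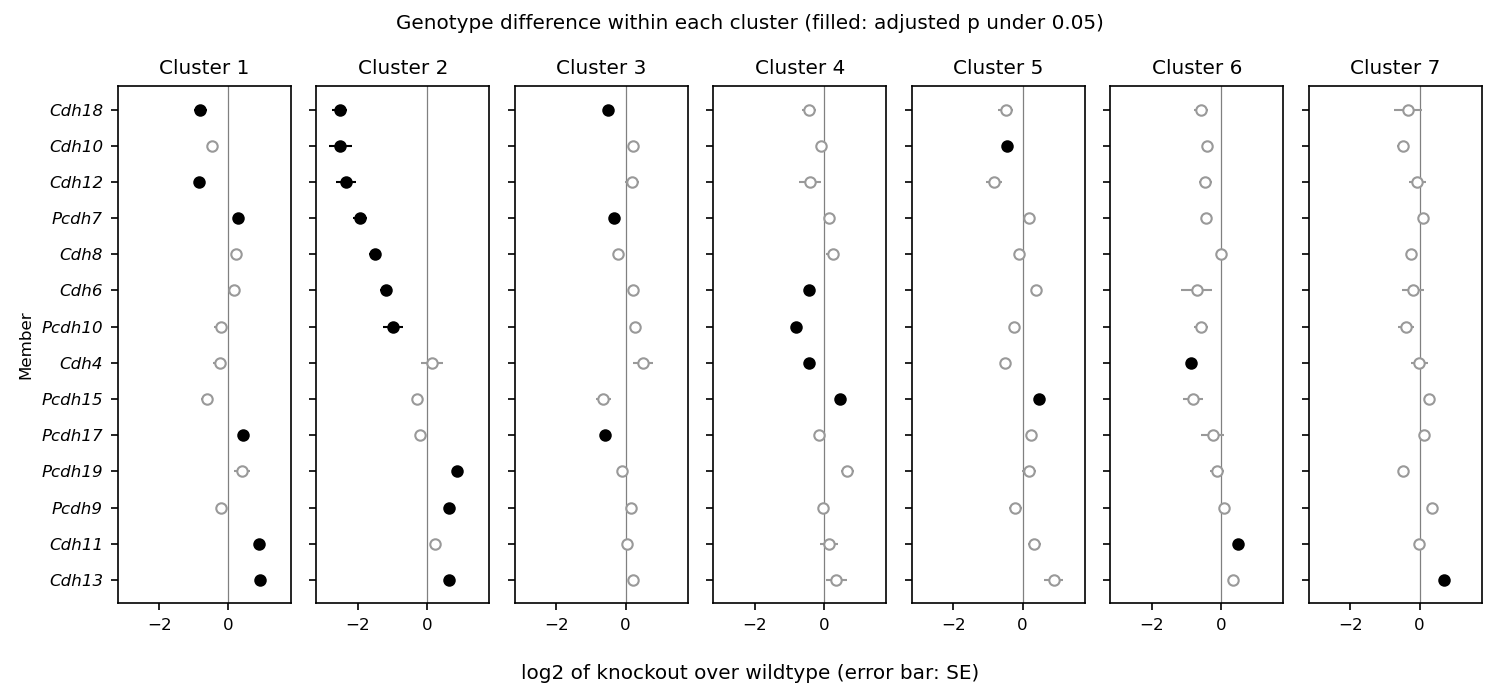
Log2 of knockout over wildtype (points, with SE bars) for the 14 members past the threshold in at least 1 cluster, in each of the 7 clusters; filled points have an adjusted p under 0.05. The lowest point is Cdh18 in cluster 2, at −2.52.

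Across the 7 clusters, 162 tests of a member in a cluster gave 28 calls, 11 higher and 17 lower, in 14 members, beside 3.69% of 78692 gene by cluster tests (1.59% higher and 2.1% lower) called. The number was 45 under the replicate block, and 18 without wildtype replicate 4. Calls over all genes also rose under the block in every cluster but cluster 4, and fell without that library in all 7. Of the 14 members, 11 passed in 2 or more clusters. Pcdh7 and Pcdh17 passed in opposite directions in different clusters. Cdh12 and Cdh18 were lower wherever they passed, and Cdh13 and Cdh11 higher wherever they passed.

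Whether the genotype effect differed between clusters was tested by an F test over the cluster by genotype terms, in which 14 of 26 tested members passed, beside 8.96% of 13065 genes called. The lowest edgeR adjusted p-values were those of Pcdh7 (7.02e-12), Cdh10 (7.98e-09), Cdh8 (8.86e-08) and Cdh12 (3.99e-07). Cdh6 and Cdh18 (3.34e-06 each), Pcdh15 (2.63e-05), Pcdh19 (7.07e-05), Pcdh10 (0.000157) and Pcdh9 (0.00132) also differed between clusters. Cdh4 (0.00788) lost its call without any 1 of wildtype replicates 3 and 4 and knockout replicate 2 (up to 0.16). Cdh2 (0.0104) lost it without any 1 of wildtype replicates 2 and 3 and knockout replicate 2 (up to 0.103) and under the block (0.0731). Cdh20 (0.015) lost it without any 1 of wildtype replicates 2, 3 and 4 and knockout replicate 2 (up to 0.122), and Cdh11 (0.0262) without any 1 of wildtype replicates 1, 2, 3 and 4 and knockout replicates 2 and 3 (up to 0.12). Pcdh17 passed under the block (0.00725). Cdh13, higher in clusters 1, 2 and 7, did not pass (adjusted p = 0.474). With the settings used throughout (TMM factors, no block or covariate, all 8 libraries), 15 members passed in no fit. Of these, 4 (Cdh9, Cdh7, Pcdh8 and Cdh24) passed under at least 1 alternative, Cdh9 in 7 such fits. Of the 31, 5 had too few UMIs to be tested in any cluster.

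Of 48 listed genes that work with cadherins, 39 were in the gene table. The lists were catenins, other members of the cadherin superfamily together with Fjx1, and shedding enzymes and repressors together with Afdn. Regulators of clustered protocadherins and Wnt and WAVE partners made up the rest. Over all nuclei 1 of 39 passed, Fat3, a giant atypical cadherin that shapes neuron processes. Fat3 was higher in the knockout, at 715 ± 38.4 and 1080.5 ± 132 CPM (log2 0.61 ± 0.09, edgeR adjusted p = 0.00463). It was also past the threshold in each of clusters 1 to 5, though not in cluster 5 without wildtype replicate 4 (adjusted p = 0.0524). In clusters 1 to 7, in that order, calls among the listed genes numbered 6 of 36, 5 of 36, 3 of 38, 2 of 35, 1 of 35, 0 of 36 and 0 of 34, beside 4.84%, 9.11%, 3.36%, 4.29%, 1.77%, 0.779% and 1.03% of all genes tested. In cluster 1 the number fell from 6 to 2 without either of knockout replicates 2 and 3 (losing Pkp4, Ctnna3, Clstn2 and Fat1) and to 3 without any 1 of wildtype replicates 1, 3 and 4. In cluster 3 it fell from 3 to 1 without knockout replicate 3, leaving Fat3, and in cluster 4 from 2 to 1 without either of wildtype replicate 3 and knockout replicate 2. Of the 8 catenins tested, 0 passed over all nuclei, 2 in cluster 1 (Pkp4 and Ctnna3), 1 in cluster 2 (Pkp4) and 1 in cluster 3 (Ctnna2). Pkp4 in cluster 2 kept its call in all 13 alternatives, whereas of 13 alternatives Pkp4 in cluster 1 lost it in 7, Ctnna3 in cluster 1 in 6 and Ctnna2 in cluster 3 in 8.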

How the data were processed

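Single-nucleus RNA sequencing with a 3′ UMI kit covered 8 samples, 4 per group. The authors deposited whole-number UMI counts per gene and nucleus; kallisto, bustools and mm10 are named in the submitters' processing notes, without versions. Cluster and group numbers, the cell-cycle angle (a score) and a doublet score (a score, at most 0.5) are values of other kinds, per the file headers, and no further doublet filter was applied. Nuclei held at least 1496 UMIs. Counts were summed per sample and cluster and tested with edgeR 4.0.16 in R 4.3.3 (TMM factors, filterByExpr, glmQLFit and glmQLFTest), adjusted by Benjamini-Hochberg over all genes tested, threshold 0.05. The SE given with a log2 fold change was calculated back from the test, as its absolute value over the square root of the F statistic. DESeq2 1.42.0, RLE size factors, no filter, a replicate block, an Xist covariate and leaving out each library were alternatives. The CPM levels use plain UMI totals. Near-identical copies were found with blastn 2.17.0. On simulated counts for all nuclei (13926 genes), 90% of 200 genes changed by a log2 of 1 were recovered, and 85.5% in cluster 2 (11538 genes). False calls made up 2.7% and 5% of the calls there. Their share was 8.02% in cluster 1, the highest of any fit, and 6.52% in clusters 1 and 2 merged. For the difference between clusters, with genes changed in cluster 4 only, recovery was lowest, at 74.5%.

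The replicate numbers come from the sample titles. Over all nuclei, deviations from group means correlated across genes at 0.179 to 0.398 for the 4 same-numbered pairs. The 12 other pairs lay at −0.356 to 0.287, which overlaps that range. Every same-numbered pair was over 0.1, so the numbers were taken to pair the samples, although the titles do not say what they stand for. Within clusters some same-numbered pairs were under 0.1, down to −0.091 for replicate 3 in cluster 4. All libraries carry 1 library date. Members and gene lists were chosen with earlier results of these data known. Named members are those called in any fit (full statistics for the 12 of lowest adjusted p, means or ranges for the rest), those that mark a cluster, and a list known from developing cortex. Pantr2 and 1 listed marker gene are not reported here.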

Additional observations from a re-analysis of the deposited data

Results flagged for a closer look

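Of 82 groups of 4 samples checked, 4 had 1 sample far from the other 3, and chance flags about 1 in 20 groups. Pcdh7 in cluster 1 was at 621 CPM in knockout replicate 4 and at 698 to 712 CPM in the other knockout samples. Pcdh9 in cluster 2 was at 2792 CPM in wildtype replicate 3 and at 2329.7 to 2384 CPM in the other wildtype samples. Pcdh10 in cluster 2 was at 21.4 CPM in knockout replicate 1 and at 10.7 to 12.3 CPM in the other knockout samples. Cdh11 in cluster 6 was at 189 CPM in wildtype replicate 1 and at 142 to 146 CPM in the other wildtype samples.

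The genotype effect differed between clusters for 14 members by the F test of edgeR over the cluster by genotype terms. The adjusted p-values were 7.02e-12 for Pcdh7, 7.98e-09 for Cdh10, 8.86e-08 for Cdh8, 3.99e-07 for Cdh12, 3.34e-06 for Cdh6, 3.34e-06 for Cdh18, 2.63e-05 for Pcdh15, 7.07e-05 for Pcdh19, 0.000157 for Pcdh10, 0.00132 for Pcdh9, 0.00788 for Cdh4, 0.0104 for Cdh2, 0.015 for Cdh20 and 0.0262 for Cdh11. Pcdh7 was higher in cluster 1 and lower in clusters 2 and 3, and Cdh18 was lower in clusters 1, 2 and 3.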

How the results depend on the processing

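With the replicate block, the count of members past the threshold went from 4 to 9 over all nuclei, from 3 to 7 in cluster 3, from 2 to 4 in cluster 5, from 2 to 7 in cluster 6, from 1 to 3 in cluster 7 and from 28 to 45 over all clusters, and the block changed no call besides those given in the report. Over all genes the calls rose too, from 732 to 1363 over all nuclei and from 400 to 643 in cluster 3. They rose from 188 to 207 in cluster 5, from 82 to 264 in cluster 6 and from 109 to 255 in cluster 7. DESeq2 called 2 members in cluster 7 and 32 over all clusters. Leaving out 1 library gave 2 to 6 members over all nuclei, 3 to 8 in cluster 1, 9 to 10 in cluster 2, 1 to 3 in cluster 3, 2 to 5 in cluster 4, 1 to 2 in cluster 5, 1 to 4 in cluster 6, 0 to 2 in cluster 7, 7 to 11 in clusters 1 and 2 merged, 18 to 28 over all clusters and 10 to 15 for the difference between clusters. Calls over all genes varied in the same fits, at 263 to 994 over all nuclei. In clusters 1 to 7, in that order, they were 335 to 647, 738 to 1074, 192 to 438, 315 to 539, 101 to 189, 51 to 148 and 63 to 142. They were 535 to 970 in clusters 1 and 2 merged and 686 to 1171 for the difference between clusters. Marking members numbered 7 with wildtype samples only, 2 at a ratio of 3, and 3 to 5 when 1 library was left out. Pcdh7 had a log2 fold change of −0.70 when clusters 1 and 2 were merged, which sums the UMIs of both. Its means in wildtype and knockout were 576 and 685 CPM in cluster 1 and 982 and 256 CPM in cluster 2. Cdh11 in cluster 3 moved to 685 CPM with TMM factors. The highest cluster was the same for 26 of 31 members with TMM factors (Cdh6, Cdh24, Pcdh15, Pcdh18 and Pcdha1 changed) and for 27 with wildtype samples only (Cdh1, Cdh3, Cdh10 and Pcdha1 changed). Of the other values of named genes, 645 kept direction and call, and 95 (of 20 results) kept direction and lost the call. DESeq2 was not run for the difference between clusters. A library left out lowers n, and UMIs limit the 9 members under 10 CPM.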
